A study of Mus musculus with 47 samples.

Results

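The phase II conjugation genes of the mouse were examined in the liver and cauda spermatozoa of adult males whose fathers or grandfathers lacked Scml2, a Polycomb-related gene of the male germline, and of controls. They were taken by symbol, as every gene of the UDP-glucuronosyltransferase families Ugt1 to Ugt3, of the cytosolic and mitochondrial glutathione S-transferase classes Gsta, Gstk, Gstm, Gsto, Gstp and Gstt, and of the sulfotransferase families (Sult). This gave 58 of the 23416 genes counted, of which 20 were Ugt, 20 Gst and 18 Sult genes. The rule uses symbols and no measured value, although the gene families were picked with earlier results of these data known.

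Phase II enzymes attach a polar group to drugs, steroids, bilirubin and reactive electrophiles so that the products can be exported. UGTs, in the endoplasmic reticulum, transfer glucuronic acid from UDP-glucuronic acid, GSTs transfer glutathione, and SULTs transfer sulfate from the activated donor PAPS. The liver is the classical site of all of them, whereas mature spermatozoa are largely silent in transcription, carry RNA left over from spermatogenesis, and are known to hold mu-class GSTs.

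Ctrl-F1 and KO-F1 males were conceived by intracytoplasmic injection of testicular sperm from wild-type or Scml2-KO C57BL/6 males into oocytes of BDF1 females, so that the F1 males of both groups carried a wild-type Scml2 genotype (background labelled BDF2). KO-F2 males came from natural mating of KO-F1 males with C57BL/6 females (background labelled BDF3), and no Ctrl-F2 group was analysed here, so that generation, mode of conception and background cannot be told apart in comparisons of KO-F2 with F1 males. All males were 8 to 12 weeks old. There were 2 libraries in each of 5 groups: Ctrl-F1 liver, KO-F1 liver, and Ctrl-F1, KO-F1 and KO-F2 spermatozoa. Liver RNA was sequenced from stranded mRNA libraries and sperm RNA, after a swim-up of cauda sperm, from amplified full-length cDNA, so that tissue and kit cannot be told apart either.

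The liver libraries held 11339729 to 14278900 counts, the 4 F1 sperm libraries 1503733 to 2778171, and the KO-F2 sperm libraries 8384266 and 11462105. One count was therefore worth most in F1 spermatozoa, where the floor of 3 counts stood at 1.08 to 2.00 CPM (a gene's share of the library total, scaled so that the total is 1000000), against 0.262 and 0.358 CPM in KO-F2 spermatozoa and 0.210 to 0.265 CPM in liver. The ribosomal precursor Rn45s took 3.52% to 28.7% of the sperm counts and at most 1.59% of the liver counts. Liver libraries had all 12 hepatocyte markers above the floor, and sperm libraries had 23 or 24 of 24 late spermatogenesis markers above it while the summed hepatocyte markers stayed under 6 CPM. Scml2 itself had 0 counts in all 4 liver libraries, and its counts in spermatozoa were 0 and 18 (Ctrl-F1), 0 and 4 (KO-F1) and 6 and 9 (KO-F2). The offspring are wild-type at the locus, so this gene does not check their labels.

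The sequences just upstream of 5 Gst genes are given first, because these genes lie in 2 short gene clusters and separated the groups of spermatozoa in opposite directions within a cluster. Each run is the 250 bases before the start site (RefSeq, GRCm38.p6, read 5′ to 3′ on the gene's strand), and those of Gstt4 and Gstm7 are taken from a start site inside the outermost one annotated. Capitals mark TGACNNNGC, the core of the antioxidant response element bound by NRF2, and TATAAA, the TATA box, searched on both strands together with TGACGTCA, the cAMP response element.

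Gstm5, chr3:107895604-107895853, plus strand: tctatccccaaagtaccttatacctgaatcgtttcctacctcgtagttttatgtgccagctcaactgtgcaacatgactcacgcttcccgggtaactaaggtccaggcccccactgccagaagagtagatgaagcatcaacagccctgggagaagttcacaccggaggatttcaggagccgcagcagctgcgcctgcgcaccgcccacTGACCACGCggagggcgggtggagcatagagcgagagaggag
Gstm7, chr3:107931818-107932067, minus strand: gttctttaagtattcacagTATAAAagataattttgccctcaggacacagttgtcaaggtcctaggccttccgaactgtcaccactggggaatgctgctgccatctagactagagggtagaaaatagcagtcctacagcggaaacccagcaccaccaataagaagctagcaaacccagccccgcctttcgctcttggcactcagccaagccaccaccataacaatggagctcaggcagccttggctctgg
Gstm2, chr3:107986421-107986670, minus strand: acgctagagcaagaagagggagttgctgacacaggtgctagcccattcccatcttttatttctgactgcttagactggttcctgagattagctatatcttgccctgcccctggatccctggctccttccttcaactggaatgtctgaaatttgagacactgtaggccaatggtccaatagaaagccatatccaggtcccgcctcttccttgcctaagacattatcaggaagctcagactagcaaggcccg
Gstt4, chr10:75822544-75822793, minus strand: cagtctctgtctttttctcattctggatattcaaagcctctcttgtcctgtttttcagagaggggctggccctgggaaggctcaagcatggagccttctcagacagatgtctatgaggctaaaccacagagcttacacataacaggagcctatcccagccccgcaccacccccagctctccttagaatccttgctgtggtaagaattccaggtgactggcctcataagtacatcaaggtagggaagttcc
Gstt3, chr10:75781423-75781672, minus strand: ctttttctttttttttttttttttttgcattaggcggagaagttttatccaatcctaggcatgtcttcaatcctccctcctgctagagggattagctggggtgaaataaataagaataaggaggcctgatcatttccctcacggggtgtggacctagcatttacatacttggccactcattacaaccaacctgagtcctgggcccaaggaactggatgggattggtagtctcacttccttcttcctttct

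In Gstm5 the capitals are an antioxidant response element core beginning at base -42, TGACCACGC, and in Gstm7 they are a TATA box beginning at base -231 from that inner start site. Gstm5 held 13 CpG sites in these 250 bases, Gstm7 4, Gstm2 3, Gstt3 2 and Gstt4 1, against a median of 6 over all 27025 genes with a promoter in the table and 2 over the 50 phase II genes found there. In the whole 300-base windows, which run 50 bases past the start, the antioxidant response element core was present in 2 of 50 phase II genes (Gstm5 and Gsta3) and in 12.4% of all genes, the TATA box in 10 of 50 and 14.2%, and the cAMP response element in 0 of 50 and 1.85%. A match is a match of letters and no evidence of binding.

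In liver, phase II genes took 1.10% to 1.28% of all counts, about evenly divided between Ugt genes (4824 to 6157 CPM in sum) and Gst genes (5768 to 6529 CPM), with 381 to 607 CPM for Sult genes. In control liver 41 of 58 genes were above the floor in both libraries and 16 were at 0 in both. Ranked by CPM in control liver, the leading genes were Gstm1, the major hepatic mu-class GST (1482 and 2111 CPM), Gsta3, an alpha-class GST that detoxifies aflatoxin epoxide in mice (1500 and 1814), Gstp1, the pi-class GST (1501 and 1185), Ugt2b5 (1291 and 1269) and Ugt2b1 (1300.2 and 1047), both of which glucuronidate steroids and xenobiotics. The 2 libraries of these genes overlapped from rank to rank, so their order was not resolved. Per kilobase of exon that no other gene overlaps, Gstp1 came first (2018 and 1593 CPM per kb), followed by Gstm1 (1080 and 1538), Gsta3 (920 and 1113) and Ugt2b5 (682 and 670). Gstp1 shares 57.7% of its 75-base sequences with Gstp2, and Ugt2b5 shares 28.4% with Ugt2b38, so that reads could be split between these copies.

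Sulfotransferases in liver came from few genes. Sult1a1, which sulfates phenols, led with 284 and 228 CPM in control liver, followed by Sult1d1 with 145 and 122 CPM and Sult1b1 with 51.2 and 38.9 CPM. Sult2a1 to Sult2a6 and Sult3a1, known to be expressed mainly in female mouse liver, were at 0 counts in all 4 livers, which allows at most 0.265 CPM in the shallowest of them. They were at 0 in every sperm library as well.

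Spermatozoa held a different set. Gst genes made up 98.1% to 99.6% of all phase II counts there, Ugt genes summed to at most 15.5 CPM, and only 20 of 58 genes were above the floor in both Ctrl-F1 libraries, against 23 in KO-F1 and 24 in the more deeply sequenced KO-F2 libraries. Gstm5, a mu-class GST abundant in testis, was 73.3% and 77.3% of all phase II counts in Ctrl-F1 spermatozoa (3351 and 4376 CPM). Next came Gstm1 (320.2 and 537 CPM), Gstm7 (249 and 260.02), Gstm2 (278 and 204) and Gstt4, a theta-class GST (126 and 69.2). Gstm5 was also first per kilobase of unshared exon (4374 and 5713 CPM per kb), far above the next gene, Gstm1 (233 and 391). In control liver Gstm5 was at 11.4 and 12.7 CPM and Gstt4 had 0 counts in every liver library. Sult2b1, a sulfotransferase for cholesterol and other sterols, likewise had 0 counts in the livers and 8.65 and 6.65 CPM in Ctrl-F1 spermatozoa.

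**Figure D1:**
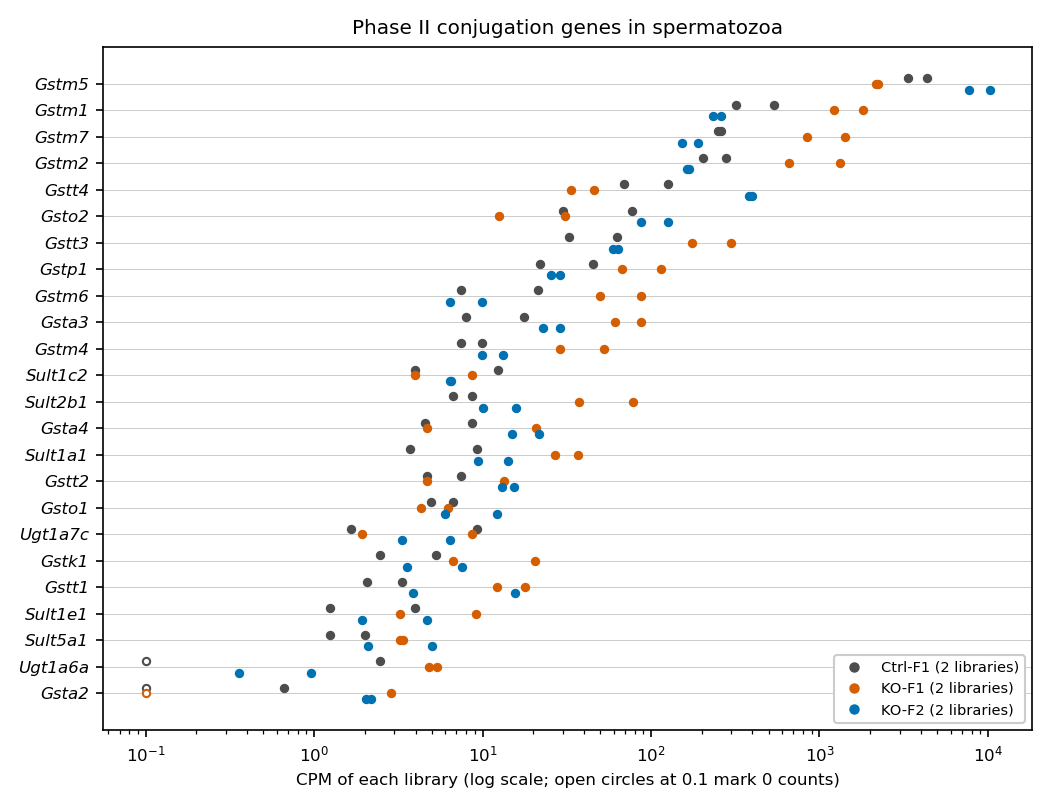
CPM of each sperm library (log axis) for the 24 phase II genes tested in at least 1 sperm comparison, ordered by their mean in Ctrl-F1. Each point is 1 library, 2 per group. Gstm5 and Gstt4 were lowest in both KO-F1 and highest in both KO-F2 libraries, Gsto2 followed them with an overlap between KO-F1 and Ctrl-F1, and Gstm1, Gstm7, Gstm2, Gstt3, Gstm6 and Sult2b1 were highest in KO-F1 libraries.

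The comparison of KO-F1 with Ctrl-F1 spermatozoa asked whether a father's lack of Scml2 altered the RNA content of his sons' sperm. Of the 16 Gst genes tested, 10 had higher CPM in both KO-F1 libraries than in both Ctrl-F1 libraries, a separation that 38.1% of all genes tested also had, while Gstm5 and Gstt4 had lower ones (17.8% of all genes). No phase II gene passed the edgeR quasi-likelihood test at an adjusted p under 0.01 and a fold change of at least 2 (0 of 21 tested, against 0% of all 10785 genes tested). DESeq2 at the same thresholds called 4 higher (Gstm7, Gstt3, Gstm2 and Gstm1) of the 12 to which it gave an adjusted p, where 2.5% of all 5000 such genes were called higher, and 1 lower (Gstm5), where 5.3% were called lower. With at least 10 counts required in every library, edgeR called Gstm7 and Gstt3, 2 of 14 tested, where 3.2% of all genes were called. At an unadjusted edgeR p under 0.05 there were 8 higher of 21 (8.88% of all genes) and 3 lower (10.6% of all genes). The median log2 fold change over the 21 tested genes was 1.34, with 15 above 0 and 6 below, beside 0.02 over all genes. The 37 genes left out by the filter on low counts have no value here, and without Ctrl-F1 replicate 1 the median was 0.84, beside 0.24 over all genes. Of the 5 DESeq2 calls, 1 remained without Ctrl-F1 replicate 1 (Gstm5), 2 without Ctrl-F1 replicate 2 (Gstm1 and Gstm7), 0 without KO-F1 replicate 1 and 2 without KO-F1 replicate 2 (Gstm2 and Gstm7), fits in which 1.81%, 2.04%, 3.16% and 5.92% of all genes were called. The study listed Gstt3, Gstm7 and Gstm2 among the genes changed in these same samples, so their naming is not independent evidence.

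Mu-class genes. Gstm7 had 249 and 260.02 CPM in Ctrl-F1 and 1427 and 842 CPM in KO-F1 spermatozoa, with every KO-F1 value above every Ctrl-F1 value. Its log2 fold change was 1.69 ± 0.42 (SE, n = 2 and 2), with an edgeR adjusted p of 0.140 and a DESeq2 adjusted p of 0.000211. Gstm2 went from 278 and 204 CPM to 1317 and 661 CPM, again without overlap (1.58 ± 0.44 on the log2 scale, edgeR adjusted p 0.142, DESeq2 adjusted p 0.00120). Gstm1, the most abundant of the genes with higher levels in KO-F1, had 320.2 and 537 CPM against 1812 and 1218 CPM. The Gstm1 groups did not overlap, and its log2 fold change of 1.34 ± 0.46 had adjusted p-values of 0.178 in edgeR and 0.00842 in DESeq2. Gstm6 and Gstm4 had log2 fold changes of 1.77 ± 0.70 and 1.75 ± 0.69, both with an edgeR adjusted p of 0.221. Gstm5 stood apart from its class. It had 3351 and 4376 CPM in Ctrl-F1 and 2167 and 2228 CPM in KO-F1, both KO-F1 libraries lying below both controls, with a log2 fold change of -1.27 ± 0.44 (edgeR adjusted p 0.177, DESeq2 adjusted p 0.00456).

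Of the theta-class genes, 3 of the 4 tested had log2 fold changes above 0 and Gstt4 below it, while both omega-class genes lay below 0 and both alpha-class genes above it. Gstt3 had 62.6 and 32.6 CPM in Ctrl-F1 and 299 and 176 CPM in KO-F1 spermatozoa, a log2 fold change of 1.87 ± 0.47 without overlap (edgeR adjusted p 0.140, DESeq2 adjusted p 0.00271). Gstt4 had 126 and 69.2 CPM against 45.7 and 33.6 CPM, also without overlap but in the other direction (-1.73 ± 0.46, edgeR adjusted p 0.142, DESeq2 adjusted p 0.0240). Gsto2, an omega-class GST that reduces dehydroascorbate, overlapped between the groups, with 76.6 and 29.9 CPM against 31.0 and 12.5 CPM (-1.73 ± 0.66, edgeR adjusted p 0.207). Gsta3 had 17.7 and 7.98 CPM in Ctrl-F1 and 86.7 and 61.4 CPM in KO-F1 (2.08 ± 0.58, edgeR adjusted p 0.143, DESeq2 adjusted p 0.0268). Gsta3 and Gstm5 are the pair of phase II genes with an antioxidant response element core in the promoter window. Their log2 fold changes were 2.08 and -1.27, or 3.80 and 0.49 when scaled to the late spermatogenesis genes. Whether the motif had any part was not tested. Gsto1 and the sulfotransferase Sult1c2 were near 10 counts in some libraries, and their log2 fold changes of -0.57 ± 1.21 and -0.76 ± 1.16 were smaller than their errors, that of Sult1c2 turning to 0.12 without Ctrl-F1 replicate 1.

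Among sulfotransferases, Sult2b1 had the widest difference, with 21 and 10 counts in the control and 218 and 78 in the KO-F1 libraries (8.65 and 6.65 against 78.5 and 37.4 CPM). The groups did not overlap, and the log2 fold change of 2.45 ± 0.65 had an edgeR adjusted p of 0.140 and a DESeq2 adjusted p of 0.0221, short of the threshold in both. The Ugt genes were too sparse to compare, as Ugt1a6a, one of the 2 tested, had 6 and 0 counts in the control and 15 and 10 in the KO-F1 libraries.

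**Figure D2:**
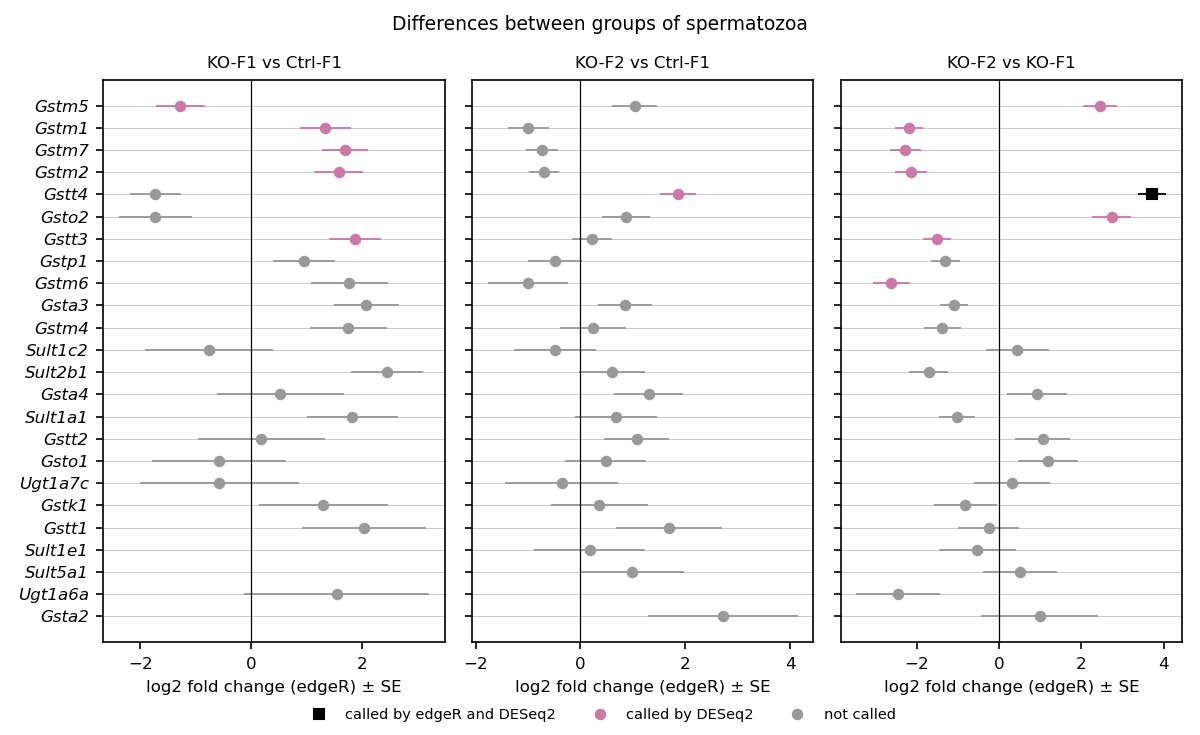
Log2 fold change (edgeR, ± SE) of the tested phase II genes in 3 comparisons of spermatozoa, 2 libraries per group. Colours give the calls at an adjusted p under 0.01 and a fold change of at least 2. Gstt4 in KO-F2 against KO-F1 is the only gene called by edgeR, and the comparisons share libraries in pairs.

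The markers of cell types moved between these libraries too. The 24 late spermatogenesis genes summed to 147193 and 129524 CPM in Ctrl-F1, 64057 and 49099 CPM in KO-F1, and 169536 and 168459 CPM in KO-F2 spermatozoa, and DESeq2 called 20 of the 23 tested lower in KO-F1 spermatozoa when set against Ctrl-F1 (5.3% of all genes), and 21 of 24 higher in KO-F2 when set against KO-F1 (9.25% of all genes). edgeR called 0 and 5 of them (0% and 2.31% of all genes called in either direction). The 31 epididymal epithelium genes, led by Crisp1, summed to 22361 and 7837, 15375 and 16189, and 4387 and 2367 CPM in the same order, with 21 to 24 genes above the floor in the F1 libraries and Lcn5 at 0 in 3 of the 4. In KO-F1 against Ctrl-F1 the median log2 fold change of the 19 tested was 0.08, with 11 above 0. Crisp1 overlapped between these groups (18255 and 5448 against 9227 and 11544 CPM in KO-F1). Without overlap in CPM, 7 of the 19 tested were higher in the KO-F1 libraries than in the controls (38.1% of all genes) and 1 was lower (17.8% of all genes). The lower one was Cst8 (61.4 and 57.2, 38.2 and 22.5, and 114 and 95.5 CPM in the same order). Among the 7 were the keratin Krt18 (83.2 and 47.2, 322 and 176, and 64.2 and 73.8 CPM in the same order) and Wfdc10 (2041 and 903, 4147 and 2258, and 803 and 404 CPM), and Krt8 and Wfdc9, like them, were highest in both KO-F1 libraries. Aqp9 and Pate4 were too, whereas Lcn9, the last of the 7, was highest in both KO-F2 libraries. Krt8 and Krt18 also had 151 to 220 CPM in the livers, so they do not mark epididymal epithelium alone. DESeq2 called none of the list in KO-F1 against Ctrl-F1 spermatozoa. There 3 were higher (8.88% of all genes) and 1 lower (10.6% of all genes) at an unadjusted edgeR p under 0.05. In KO-F2 against KO-F1 DESeq2 called 9 of 27 lower (4.35% of all genes), Krt18, Wfdc10, Krt8 and Wfdc9 among them, and 1 higher (9.25% of all genes). There edgeR called 0 of 25 (2.31% of all genes). Without overlap in CPM, 14 of the 25 were lower in KO-F2 and 7 were higher, Lcn9 among the latter. The share of all genes without overlap was not computed for this comparison, so whether these counts are unusual cannot be told. The 15 leukocyte genes measured summed to 6999 and 3062, 31106 and 12621, and 5883 and 6227 CPM. Most of that sum in F1 spermatozoa was Cd52, which the epididymis also makes. Without Cd52, a choice made after seeing the data, it was 280.2 and 675, 401 and 486, and 2853 and 4815 CPM, and Cd3e was at 0 in all 4 F1 libraries. The stroma list stayed between 238 and 809 CPM with 9 or 10 of 10 genes above the floor. In bulk samples, fewer cells of a type and less RNA per cell cannot be told apart, and the part of these shifts in the phase II differences was not tested.

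When libraries were scaled to the summed late spermatogenesis genes instead, a choice made after seeing the data, the median of all genes in KO-F1 against Ctrl-F1 moved from 0.02 to 1.76. Scaled to library totals, Gstm5, Gstt4 and Gsto2 stayed below 0 (-0.81, -1.30 and -1.29). On the late spermatogenesis scale they had log2 fold changes of 0.49, 0.01 and -0.03. By construction that scale moved all genes by about the same amount, so these shifts say nothing particular about these genes. Gstm7, Gstm2, Gstt3, Gstm1, Gsta3 and Sult2b1 had values of 3.07 to 4.15 and were called higher by edgeR, 6 of 21 tested, where 4% of all genes were called higher on that scale. Counts of 2 genes within a library need no scaling between libraries. Per count of Gstm7 the Ctrl-F1 libraries held 13.5 and 16.8 counts of Gstm5, the KO-F1 libraries 1.52 and 2.65 and the KO-F2 libraries 40.5 and 67.1. Per count of Gstt3 they held 2.01 and 2.12, 0.153 and 0.191, and 6.29 and 6.43 counts of Gstt4. Neither ratio overlapped between any of the 3 groups. The pairs were chosen after their values were seen, and with 2 libraries a group an exact two-sided permutation test cannot go below p = 0.333.

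**Figure D3:**
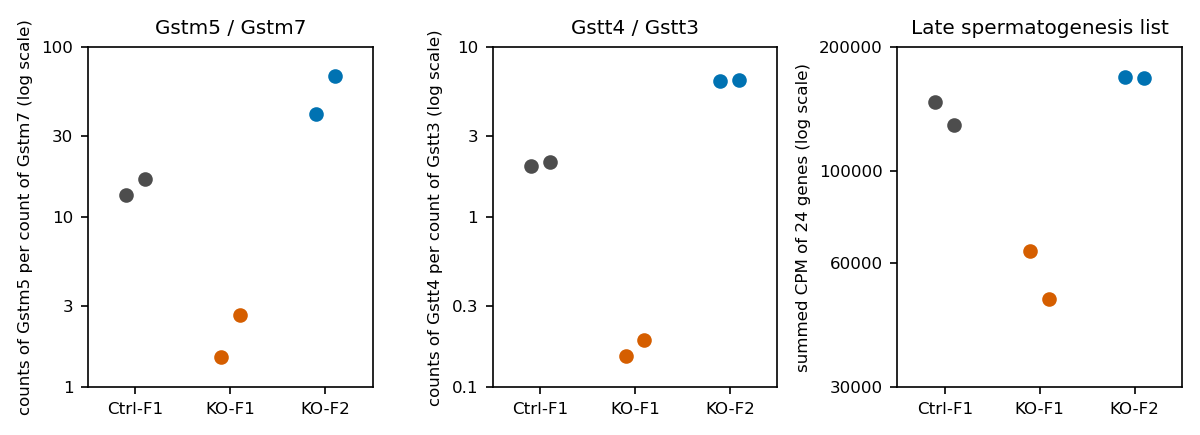
Counts of Gstm5 per count of Gstm7, counts of Gstt4 per count of Gstt3, and the summed CPM of 24 late spermatogenesis genes in each sperm library (log axes). Each point is 1 library. All 3 quantities were lowest in the KO-F1 libraries and highest in the KO-F2 libraries.

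The genes that differed in opposite directions are neighbours. The 7 Gstm genes lie on chromosome 3, from Gstm5 (107895854 to 107898685, plus strand) through Gstm7, Gstm6, Gstm3, Gstm2 and Gstm1 to Gstm4 (108030571 to 108045179), with all but Gstm5 on the minus strand (RefSeq, GRCm38.p6). Gstm5 was the only one of the 6 tested with a log2 fold change below 0 in KO-F1 against Ctrl-F1. Gstm3 was not tested, having 0 to 10 counts in the sperm libraries. On chromosome 10, Gstt3 (75774117 to 75781422), Gstt1, Gstt4 (75814943 to 75822566) and Gstt2 follow each other on the minus strand. Their log2 fold changes were 1.87, 2.03 ± 1.12, -1.73 and 0.19 ± 1.14. Of the 911 exon bases of Gstm5, 145 lie opposite an exon of the non-coding gene 4933431E20Rik, and whether counting used strand is not given in the sources used here. In replicate 1 and 2 of Ctrl-F1, KO-F1 and KO-F2 spermatozoa that gene had 798 and 550, 524 and 672, and 11925 and 12671 counts, against 8132 and 6581, 6019 and 4646, and 88830 and 86025 for Gstm5. Gstt3 shares 25.0% of its 75-base sequences with Gm20441, and Gstm1 shares 14.8% of its own with other genes, so that reads could be split there, while Gstm5, Gstm7 and Gstt4 share none.

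**Figure D4:**
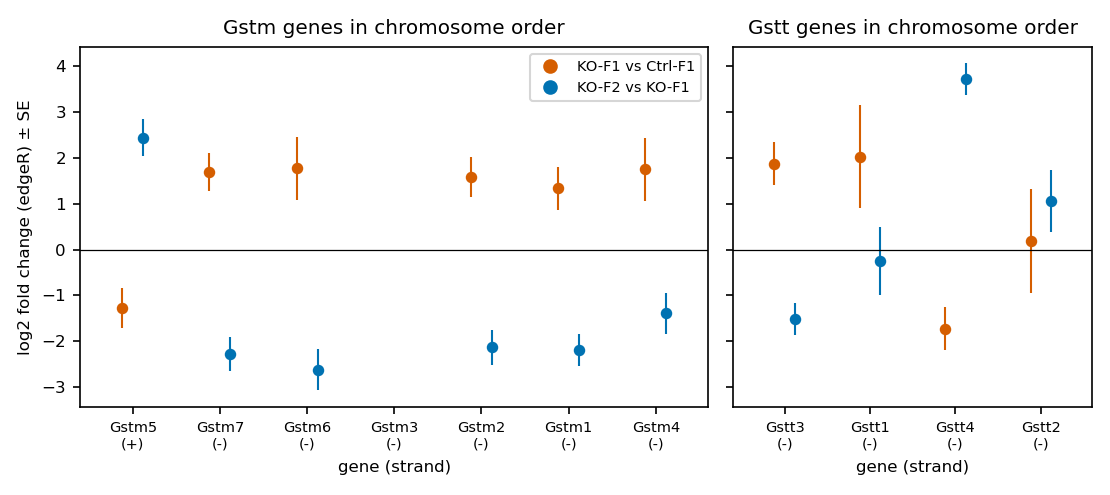
Log2 fold change (edgeR, ± SE) of the Gstm genes of chromosome 3 and the Gstt genes of chromosome 10, in chromosome order and evenly spaced, for KO-F1 against Ctrl-F1 and KO-F2 against KO-F1 spermatozoa (2 libraries per group). Gstm5 and Gstt4 lay below 0 in the first comparison and the other genes tested above it, although Gstt2 (0.19 ± 1.14) had no clear sign. Scaled to the late spermatogenesis genes, Gstm5 and Gstt4 were at 0.49 and 0.01. Gstm3 was not tested.

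KO-F2 spermatozoa were compared with Ctrl-F1 spermatozoa to see whether a difference was present a generation later. No phase II gene passed in edgeR (0 of 23 tested, against 0% of 13149 genes), and DESeq2 called 1 higher of 22, Gstt4, where 1.15% of all genes were called higher. At an unadjusted edgeR p under 0.05, 1 gene was higher (Gstt4, with 9.07% of all genes) and 2 were lower (Gstm1 and Gstm2, with 5.83% of all genes). The median over the 23 genes was 0.48, beside 0.07 over all genes. It was 0.19 over 37 genes in DESeq2 (0.10 over all genes), 0.50 without Ctrl-F1 replicate 1 (0.43 over all genes) and 0.86 without Ctrl-F1 replicate 2 (0.25 over all genes). Gstt4 had 126 and 69.2 CPM in Ctrl-F1 and 398 and 381 CPM in KO-F2, without overlap, and a log2 fold change of 1.86 ± 0.34 (edgeR adjusted p 0.149, DESeq2 adjusted p 0.000228). Its DESeq2 call was absent when either KO-F2 library was left out, and without Ctrl-F1 replicate 2 DESeq2 called Gstm5 higher as well (1.94% of all genes called higher). Gstt4 is a gene the study listed as changed in these samples. Gstm5 had 7750 and 10260.3 CPM in KO-F2, both above the controls, with a log2 fold change of 1.04 ± 0.43 (edgeR adjusted p 0.339). Gstm1, Gstm2 and Gstm7 lay below both controls in both KO-F2 libraries, at log2 fold changes of -0.99 ± 0.39, -0.69 ± 0.28 and -0.73 ± 0.30 (edgeR adjusted p 0.321 to 0.337). Of the 23 genes tested those 3 were the ones lower without overlap (15.4% of all genes), and 11 were higher without overlap (33.8% of all genes), namely Gstt4, Gstm5, Gsta2, Gsta3, Gsta4, Gsto2, Gstt1, Gstt2, Sult1a1, Sult2b1 and Sult5a1. The tests do not show that KO-F2 and Ctrl-F1 spermatozoa were alike, as the errors leave room for changes of about that size. Gsta4, Gsto2, Gsta2, Gstm6 and Gstp1 had errors of 0.46 to 1.43 and edgeR adjusted p-values of 0.432 to 0.733. Of the 11 genes higher without overlap, Gsta2 had 0 and 1 reads in the control libraries, Sult5a1 3 and 3, the floor, and Gstt1 5 and 5. The KO-F2 libraries held 25 and 17, 24 and 42, and 44 and 130 reads of these genes. With so few control reads, passing the filter on low counts leaned on KO-F2, so their separation carries little weight. Without Ctrl-F1 replicate 2 the values of Gstm6 and Gstp1 turned from negative to 0.14 and 0.31.

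The contrast of KO-F2 with KO-F1 spermatozoa, successive generations of the same paternal line, gave the most calls. It shares the KO-F1 libraries with the first comparison and the KO-F2 libraries with the second. edgeR called 1 phase II gene higher of 24, Gstt4, where 2.11% of all 13517 genes were called higher. DESeq2 called 3 higher of 25 (Gstt4, Gstm5 and Gsto2), with 9.25% of all genes, and 5 lower (Gstm1, Gstm7, Gstm6, Gstm2 and Gstt3), with 4.35% of all genes. At an unadjusted edgeR p under 0.05 there were 3 higher (22.4% of all genes) and 10 lower (14.4% of all genes), and the median over the 24 was -0.67, beside 0.13 over all genes. With no filter on low counts the median turned to 0.34 over 39 genes, beside 0.49 over all genes, and it was -0.39 without KO-F1 replicate 2 and -1.23 without KO-F2 replicate 2. Leaving out KO-F1 replicate 1, KO-F1 replicate 2 or KO-F2 replicate 2 raised the edgeR calls from 1 to 6, 12 and 2, Gstt4 among them each time, where 10.3%, 19.2% and 2.64% of all genes were called, and without KO-F2 replicate 1 Gstt4 was the 1 call (1.74% of all genes). The group left with 1 library is then assumed to vary like the other. Relative to the late spermatogenesis genes the median of all genes moved to -1.88, Gstt4 was still called higher by edgeR (1.72) and Gstm5 and Gsto2 were not (0.43 and 0.75).

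Gstt4 rose from 45.7 and 33.6 CPM in KO-F1 to 398 and 381 CPM in KO-F2 spermatozoa, a log2 fold change of 3.72 ± 0.34 (edgeR adjusted p 0.00911). The call was lost when libraries were scaled to their totals (3.29, adjusted p 0.0147) and held in the other edgeR settings run, leaving out any 1 library included. Gstm5 went from 2167 and 2228 CPM to 7750 and 10260.3 CPM, and Gsto2 from 31.0 and 12.5 CPM to 126 and 86.8 CPM, neither with overlap. Their edgeR adjusted p-values were 0.0117 and 0.0129, just short of the threshold, at log2 fold changes of 2.45 ± 0.41 and 2.73 ± 0.47. Gstm1 dropped to 232 and 262 CPM, Gstm7 to 191 and 153, Gstm6 to 9.86 and 6.44, Gstm2 to 167 and 164 and Gstt3 to 63.3 and 59.3, all called lower by DESeq2 and all without overlap. Their log2 fold changes were -2.19 ± 0.34, -2.28 ± 0.37, -2.62 ± 0.45, -2.13 ± 0.39 and -1.52 ± 0.34, with edgeR adjusted p-values of 0.0108, 0.0114, 0.0124, 0.0144 and 0.0260. Gsto1 and Gstt2 overlapped between the groups (edgeR adjusted p 0.287 and 0.299).

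Other genes of conjugation were tested as well. Of 54 listed genes for cofactor supply, other conjugating enzymes, conjugate breakdown and export, and regulators, 33 were tested by edgeR in KO-F1 against Ctrl-F1 spermatozoa and 0 were called (0% of all genes), with 5 higher (8.88% of all genes) and 1 lower (10.6% of all genes) at an unadjusted p under 0.05. DESeq2 called 1 of 17 higher (2.5% of all genes), Papss1, which makes the sulfate donor PAPS (49.4 and 35.9 CPM in Ctrl-F1, 257 and 168 CPM in KO-F1, 42.9 and 32.2 CPM in KO-F2, DESeq2 adjusted p 0.00208). In KO-F2 against Ctrl-F1 neither tool called any of the 40 tested, where edgeR called 0% and DESeq2 2.14% of all genes. At an unadjusted edgeR p under 0.05 there were 1 higher (9.07% of all genes) and 3 lower (5.83% of all genes). In KO-F2 against KO-F1 edgeR called 1 of 41 higher (2.11% of all genes), Gstcd, a GST-like domain gene (13.0 and 8.15 against 61.8 and 55.3 CPM, adjusted p 0.00962). There DESeq2 called 1 of 43 higher, Gstcd (9.25% of all genes), and 6 lower (4.35% of all genes). The 6 were Papss1 and Bpnt1 of sulfate donor turnover, Gclm of glutathione synthesis, the methyltransferase Inmt, and the NRF2 targets Srxn1 (465 and 384 against 86.8 and 84.2 CPM) and Txnrd1.

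Liver of KO-F1 and Ctrl-F1 males showed no called difference in phase II genes. edgeR called 0 of 40 tested (0% of 11505 genes), DESeq2 0 of 35 (0.274% of all genes), and the median log2 fold change was 0.02 over the 40 genes and -0.01 over all genes. At an unadjusted edgeR p under 0.05 there were 5 genes, all lower in KO-F1, where 5.42% of all genes were lower at that level. The 5 were Ugt1a6b, Ugt1a6a, Ugt1a1, Ugt3a1 and Gstp2. DESeq2 placed 4 of 35 there, all of these but Gstp2, where 4.46% of all genes were lower at an unadjusted DESeq2 p under 0.05. Ugt1a1, the enzyme that glucuronidates bilirubin, had 222 and 171 CPM in Ctrl-F1 and 129 and 79.2 CPM in KO-F1 liver. Both KO-F1 livers lay below both controls, at a log2 fold change of -0.87 ± 0.25 (edgeR adjusted p 0.484). Without Ctrl-F1 replicate 2 edgeR called Ugt1a1 lower (-1.08) and Ugt1a9 higher (35.5 CPM in the remaining control, 89.5 and 66.1 in KO-F1). Without Ctrl-F1 replicate 1 it called Ugt1a5 lower, and 0.435% and 0.905% of all genes were called in these fits. Without KO-F1 replicate 1 or 2 it called 0 (0.0755% and 0.0336% of all genes). Without a control library, the lone control is assumed to vary like the KO-F1 livers, which alone supply the spread. Ugt1a6a and Ugt1a6b, which glucuronidate phenols, had 46.0 and 41.2 against 26.8 and 19.0 CPM and 35.9 and 33.9 against 20.04 and 16.6 CPM, each at -0.87 (SE 0.19 and 0.17, edgeR adjusted p 0.361 and 0.353). The 8 Ugt1 genes on chromosome 1 share their last exons, with 57.2% to 100% of the exon bases of each lying in another gene of the locus, so these genes are not separate observations and depend on how shared reads were counted. Ugt3a1 had 78.5 and 84.7 against 54.0 and 37.1 CPM (-0.78 ± 0.19, edgeR adjusted p 0.418), and Gstp2 85 and 75 against 37 and 34 counts (-0.84 ± 0.34, edgeR adjusted p 0.510), both without overlap. In all, 9 of the 40 tested genes lay lower in both KO-F1 livers than in both controls (25.7% of all genes), the other four being Ugt2b34, Ugt2b35, Ugt2b36 and Ugt3a2, and 4 lay higher (15.7% of all genes).

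Spread between livers of one group was wide for some genes. Ugt1a9 had 35.5 and 168 CPM in the 2 control livers and 89.5 and 66.1 CPM in KO-F1, and Gsta2 had 16.8 and 56.0 against 48.3 and 17.5 CPM, so that the control values enclosed those of KO-F1. The 5 genes with the smallest p among those above 0 (Gstm5, Gstm6, Gstm2, Ugt2b37 and Gstt1) had unadjusted edgeR p-values of 0.0532 to 0.248. Gstm1, Gsta3, Gstp1, Ugt2b5 and Ugt2b1, the leading liver genes, overlapped between the groups. Of the 46 other conjugation genes tested in liver, edgeR called 0, with 1 higher (3.99% of all genes) and 3 lower (5.42% of all genes) at an unadjusted p under 0.05.

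**Figure D5:**
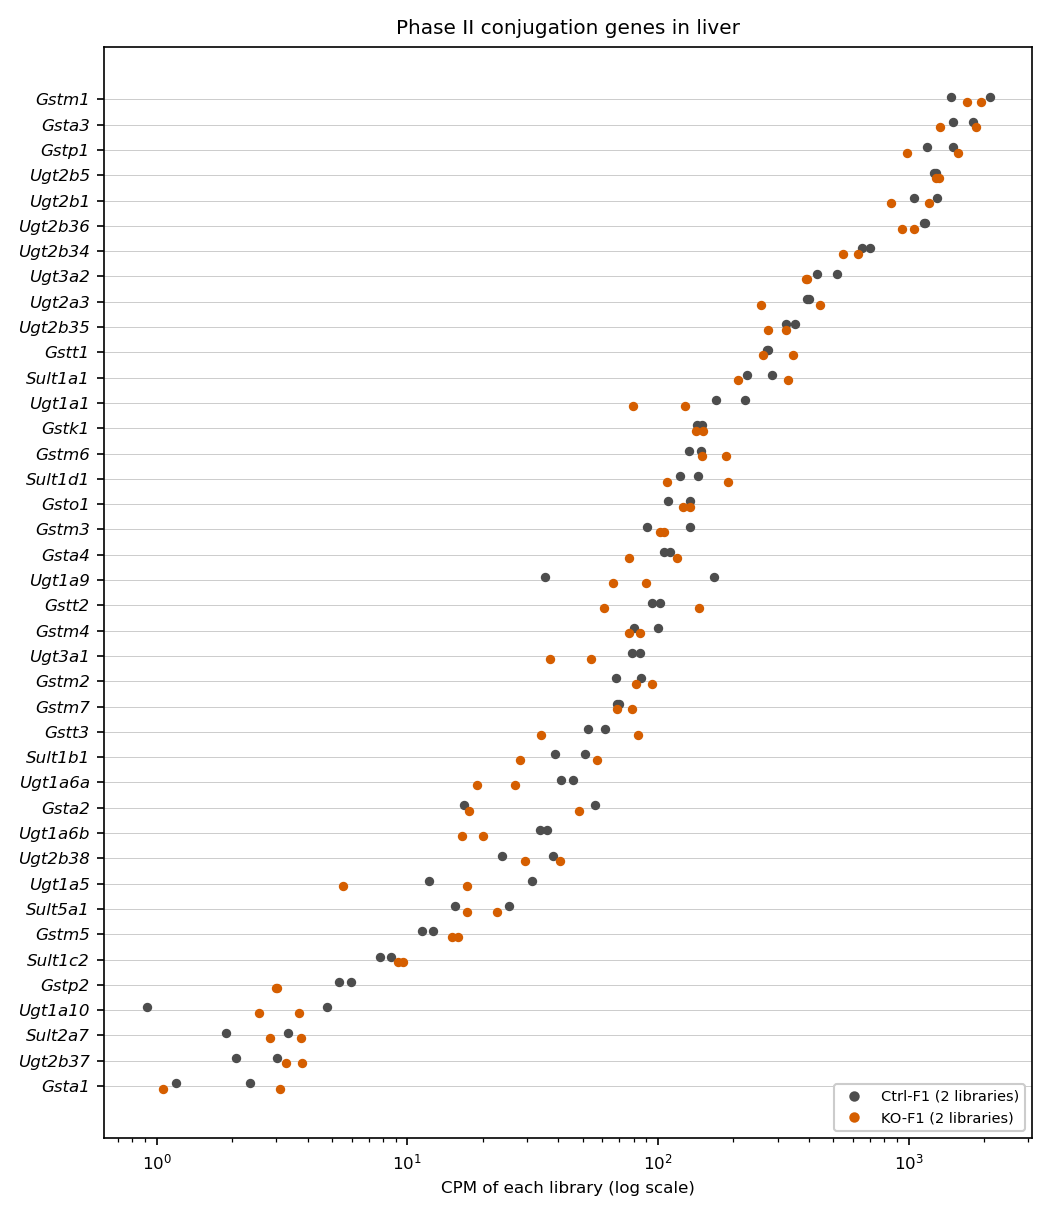
CPM of each liver library (log axis) for the 40 tested phase II genes, ordered by their mean in Ctrl-F1. Each point is 1 library, 2 per group. Ugt1a1, Ugt1a6a, Ugt1a6b, Ugt3a1 and Gstp2 have both KO-F1 points below both Ctrl-F1 points, as have Ugt2b34, Ugt2b35, Ugt2b36 and Ugt3a2, and the 5 leading genes overlap between the groups.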

How the data were processed

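RNA-seq counts per gene from 10 libraries (4 liver, 6 spermatozoa, 2 biological replicates a group) were used as deposited. The authors sequenced single-end reads, aligned them with Hisat2 2.1.0 and made the counts with featureCounts. The annotation and the strand setting are not given in the sources used here. Symbols listed more than once (2 symbols, 4 of 23420 lines) were left out. Levels are CPM on library totals. Differences were tested on the counts with edgeR 4.0.16 (R 4.3.3; TMM, filterByExpr, glmQLFit, glmQLFTest, Benjamini-Hochberg over all genes tested), 2 groups at a time, and called at an adjusted p under 0.01 and a fold change of at least 2, the thresholds of the study, with DESeq2 1.42.0 as an alternative. The scripts were tested on simulated data. p-values measure the spread between 2 libraries a group, or within the other group alone where leaving out a library left 1. The floor of 3 counts covers counting error only. Genes named are the 5 higher and 5 lower with the smallest edgeR p in each comparison, the 5 highest in each control tissue, those the study listed and those DESeq2 called. Ratios and genes outside this rule were chosen after their values were seen. The phase II genes, other lists and thresholds were chosen with earlier results of these data known. Positions and promoters are from RefSeq (GRCm38.p6), with 75-base sequence sharing from GENCODE vM21 transcripts. Other samples of the series (ChIP-seq, embryos) were not analysed here.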

Additional observations from a re-analysis of the deposited data

Results flagged for a closer look

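In 2 of the 17 phase II genes tested in both tissues the KO-F1 and Ctrl-F1 libraries did not overlap in either tissue and differed in opposite directions. The same held for 12.7% of all 8537 genes tested in both, so the pattern was not particular to phase II genes. Gstm5 had a log2 fold change of 0.43 ± 0.19 in liver and -1.27 ± 0.44 in spermatozoa, where it was 0.49 relative to the late spermatogenesis genes. Ugt1a6a had -0.87 ± 0.19 in liver and 1.54 ± 1.66 in spermatozoa, the latter on 15 and 10 counts (KO-F1) against 6 and 0 (Ctrl-F1), too few to give its direction there. The difference between the tissues was not tested in either gene, and tissue and library kit cannot be told apart.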

How the results depend on the processing

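With 2 libraries a group and few counts in F1 spermatozoa, the size of difference that could be detected in genes near the floor was not measured. In KO-F1 against Ctrl-F1 spermatozoa, the count of phase II genes called went from 0 to 5 with DESeq2, 2 with at least 10 counts in every library and 6 when scaled to the late spermatogenesis genes, and was 0 in the other edgeR settings, among them leaving out any 1 library. Their median moved from 1.34 to 1.83 with library totals (all genes 0.46) and 3.07 with the late spermatogenesis scaling (all genes 1.76), and was 0.84 to 1.65 without 1 library. That scaling, chosen after seeing the data, moved all genes by about the same amount, and with them turned Gstm5 to 0.49, Gsto1 to 1.18, Gstt4 to 0.0073 and Sult1c2 to 1.01, and Sult1c2 was -1.47 to 0.12 without 1 library. In KO-F2 against Ctrl-F1 the calls went from 0 to 1 with DESeq2, and without 1 library the median was 0.30 to 0.86, Gstm6 -1.62 to 0.14 and Gstp1 -0.99 to 0.31. In KO-F2 against KO-F1 the calls went from 1 (2.31% of all genes) to 8 with DESeq2 (13.6%), 2 with DESeq2 size factors in edgeR (2.83%), 0 with library totals (0%), 9 with no filter (13.6%), 8 with at least 10 counts in every library (20.4%), 2 with all 3 sperm groups in 1 model (1.61%), 11 with the late spermatogenesis scaling (28.8%) and 10 at an adjusted p under 0.05 (20.4%), and were 1 to 12 without 1 library (1.74% to 19.2%). The median there moved from -0.67 to -0.26 with DESeq2 and 0.34 with no filter, both over more genes (39), to -1.09 with library totals, -1.11 with all 3 groups and -2.68 with the late spermatogenesis scaling (all genes -1.88), and was -1.23 to -0.39 without 1 library. That scaling also turned Gsto1 to -0.83 and Gstt2 to -1.01. In liver the calls were 0 to 2 and the median -0.18 to 0.15 without 1 library. The cause of these shifts was not tested.

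The libraries of different groups came from different animals and shared only a replicate number, in 2 pairs a comparison. With the replicate number as a block the calls were 0 in liver, 0 in KO-F1 against Ctrl-F1, 2 in KO-F2 against Ctrl-F1 (Gstm5, adjusted p 0.00548, and Gstt4, 9.47e-05, with 2.75% of all genes called) and 7 in KO-F2 against KO-F1 spermatozoa (6.06% of all genes). Over the genes tested, the departures of same-numbered libraries from the mean of their own group correlated at -0.102, -0.0089, 0.135 and 0.0562 in that order. These values do not compare the levels themselves. In liver the crossed pairing, added after seeing the data, also gave 0.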
